A study of Homo sapiens with 9 samples.

Results

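The 10 transcripts described here encode proteins of the BCL2 family, which sets whether a cell under stress starts apoptosis at its mitochondria. They were taken as the rows of the deposited count table whose human Ensembl identifier maps to BCL2, BCL2L1, MCL1, BAX, BAK1, BCL2L11, BID, BMF, BBC3 or PMAIP1, and all 10 symbols matched 1 row each among 60448 rows. All 10 passed the filter on low counts and belong to the 15019 genes tested. RNA sequencing was done on 9 libraries of total RNA from cells grown in DMEM and labelled Huh7, the name of a human hepatocellular carcinoma line. The libraries form 3 groups of 3: control, and sets named N_28 and N_30 in which OPA1 was knocked down with lentivirus. The protocol text on the control libraries is the same as on the knock-down libraries, so it does not tell which virus, if any, the control cells received, and the meaning of the names N_28 and N_30 is not given. The labels leave unsaid whether the 3 libraries in each group are from different cultures, so the p-values speak to the scatter among these libraries, and that scatter may be technical.

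BCL2 family proteins fall into classes by their role. The anti-apoptotic members BCL2, BCL2L1 (BCL-XL) and MCL1 bind and hold the others in check. The effectors BAX and BAK1 form pores in the outer mitochondrial membrane when they are set free, and cytochrome c then leaves the organelle and activates caspases. The BH3-only members BCL2L11 (BIM), BID, BMF, BBC3 (PUMA) and PMAIP1 (NOXA) carry stress signals to the other classes. OPA1, the inner membrane GTPase targeted here, keeps the junctions of the cristae tight, and most cytochrome c of a resting cell lies inside the cristae. The transcripts measured here report none of the protein interactions, cleavage or pore formation by which the family acts.

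OPA1 was at 82.8, 92.9 and 90.5 CPM (the gene's counts relative to the scaled library size) in the control libraries, at 53.3, 55.7 and 57.8 CPM in N_28 and at 64.2, 63.3 and 65.9 CPM in N_30. The libraries of the 3 groups did not overlap, and OPA1 was 0.21 higher on the log2 scale in N_30 than in N_28 (SE 0.06, adjusted p = 0.0265), so the knock-down sets differ in their OPA1 level. Total counts were 16476389 to 22863328 per library, and a count of 3 equals 0.131 to 0.181 CPM, a limit that covers counting error only. The mitochondrial share of counts was 3.3% to 4.28%. Defining transcripts of hepatocytes were nearly absent from these libraries: of 10 such markers, 1 (FGB) averaged 1 CPM or more in control, APOB had 0 counts in every library, and the 10 together summed to 7.1 to 9.51 CPM in control, 6.1 to 7.03 CPM in N_28 and 9.36 to 10.9 CPM in N_30. Of 6 transcripts that mark the embryonic kidney, 5 averaged 1 CPM or more in control and WT1 had 0 counts in control and N_28, with sums of 225 to 288 CPM in control, 183 to 252 CPM in N_28 and 235 to 271 CPM in N_30. Of 6 fibroblast markers, 3 reached 1 CPM in control, all of them collagen genes, LUM was at 0 in every library, and the list summed to 639 to 840, 602 to 760 and 713 to 877 CPM in the 3 groups. None of 6 immune markers and 1 of 5 endothelial markers (PECAM1) reached a control mean of 1 CPM. The low hepatocyte markers are at odds with the liver origin that the label Huh7 names. The identity of the cells was not tested.

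The family's transcripts spanned a wide range, read here as CPM per kilobase of exon so that genes can be compared. MCL1, a short-lived guardian that must be made continually, stood first in control at 90.4 ± 5.13 CPM per kilobase (SD, n = 3). The effector BAX followed at 69.3 ± 3.48 and BCL2L1 at 46.2 ± 1.79 CPM per kilobase. PMAIP1 at 18.2 ± 1.74 and BAK1 at 17.0 ± 0.973 CPM per kilobase overlapped in their control libraries, and this was the one pair of neighbours in the order that did. Then came BID at 10.8 ± 0.176, BMF at 5.77 ± 1.80, BBC3 at 3.11 ± 0.724 and BCL2L11 at 1.94 ± 0.143 CPM per kilobase. BCL2, the founding member, was the lowest at 1.38 ± 0.0810 CPM per kilobase, and MCL1 stood 65.5-fold above it. Per kilobase, MCL1 supplied 65.5% ± 2.01 of the summed level of the 3 anti-apoptotic transcripts in control, 63.8% ± 1.51 in N_28 and 64.2% ± 0.962 in N_30. BAX supplied 55.0% ± 1.50, 56.7% ± 1.46 and 53.1% ± 1.78 of the summed level of the 7 pro-apoptotic ones in the same order (SD, n = 3). The order was the same in N_30, where no neighbours overlapped. In N_28, BBC3 at 3.67 ± 0.434 and BMF at 3.49 ± 0.133 CPM per kilobase changed places and overlapped.

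**Figure D1:**
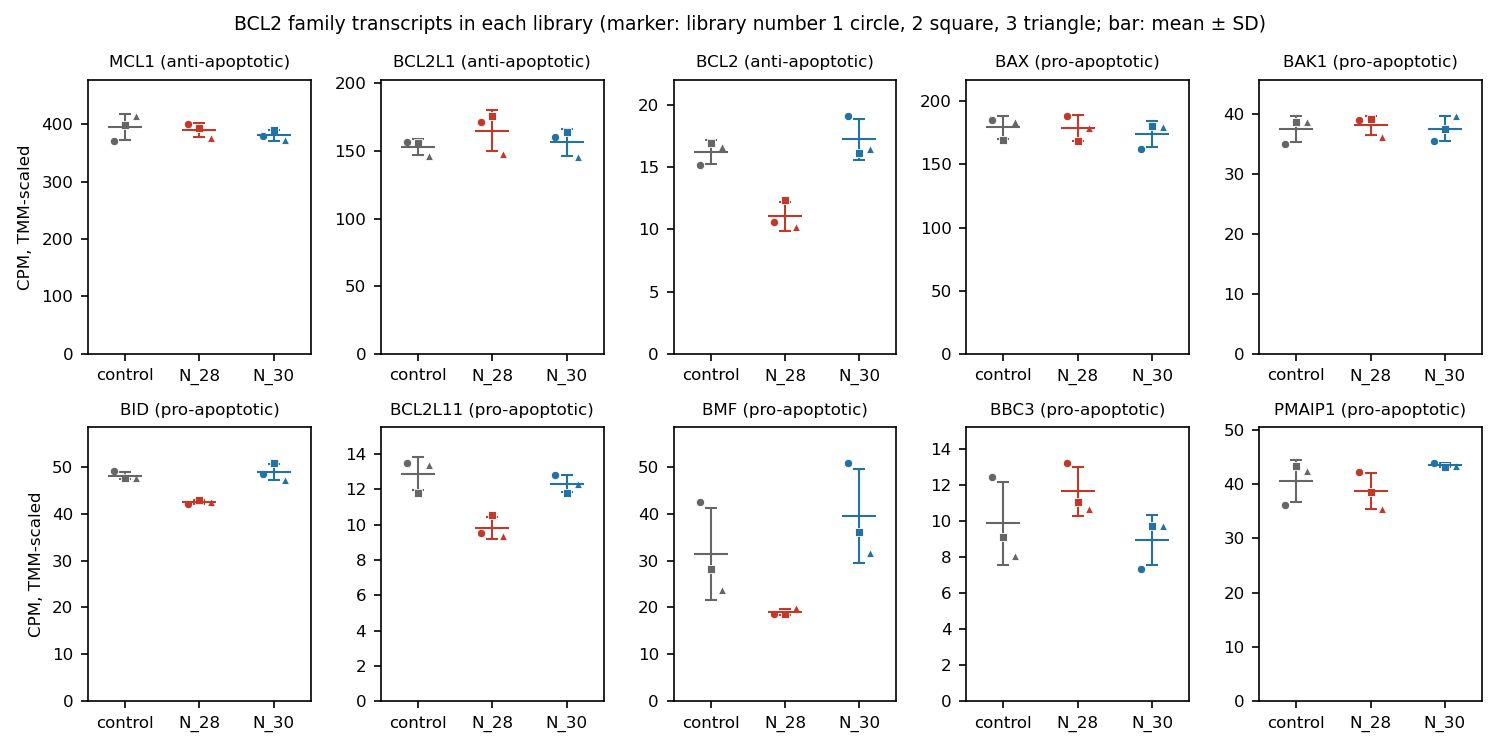
CPM on TMM-scaled library sizes (y axis, from 0) of each of the 10 BCL2 family transcripts in the 9 libraries by group, with circles, squares and triangles for libraries numbered 1, 2 and 3 and bars for the mean ± SD of 3 libraries. In BCL2, BCL2L11, BID and BMF all N_28 libraries lie below all control and all N_30 libraries, whereas MCL1, BCL2L1, BAX and BAK1 overlap between groups.

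In N_28, BCL2, BCL2L11 and BMF fell against control, to 68.0%, 76.0% and 60.6% of the control mean CPM, and no member rose. In N_30 no member passed the test against control. In N_30 against N_28, BCL2, BCL2L11, BMF and BID were higher and no member was lower. The most abundant members, MCL1, BAX and BCL2L1, passed no comparison. Transcripts of both sides therefore stood among those that fell in N_28, the anti-apoptotic BCL2 and the pro-apoptotic BCL2L11 and BMF. Lower values in bulk RNA can come from fewer cells with the transcript or from less of it in each cell, and these cannot be told apart here.

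Of the 10 members, 3 fell and 0 rose in N_28 against control by edgeR's quasi-likelihood test at an adjusted p under 0.05, where 5.75% of all genes tested fell and 4.49% rose (10.2% called in either direction). In N_30 against control 0 of 10 were called, where 0.866% of all genes were (0.459% higher, 0.406% lower); 0 of 10 had an unadjusted p under 0.05, and DESeq2 called 0 as well. Between the knock-down sets, 4 of 10 were higher in N_30 and 0 lower, beside 9.38% and 8.96% of all genes (18.3% in either direction). With both knock-downs averaged and set against control, 0 of 10 were called, where 1.78% of all genes were (0.533% higher, 1.25% lower); BCL2 and BCL2L11 had an unadjusted p under 0.05, and DESeq2 called 0. A test of any difference among the 3 groups called BCL2, BMF, BCL2L11 and BID, where it called 15.8% of all genes. The N_28 libraries did not overlap with control for BCL2, BCL2L11, BMF and BID, as for 28.7% of all genes tested, while 0 members were without overlap in N_30 against control (15.2% of all genes) and in both knock-downs against control (3.22%). The median log2 fold change of the 10 members was -0.04 in N_28, 0.01 in N_30 and 0.08 in N_30 against N_28, while that of all genes tested was 0.00 in each. In absolute size the members' median change in N_28 was 0.144, beside 0.133 for all genes, and in N_30 it was 0.0603 beside 0.0947. The N_28 and N_30 comparisons use the same control libraries, and the comparison of N_30 with N_28 shares libraries with both, so the calls are not independent of each other.

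**Figure D2:**
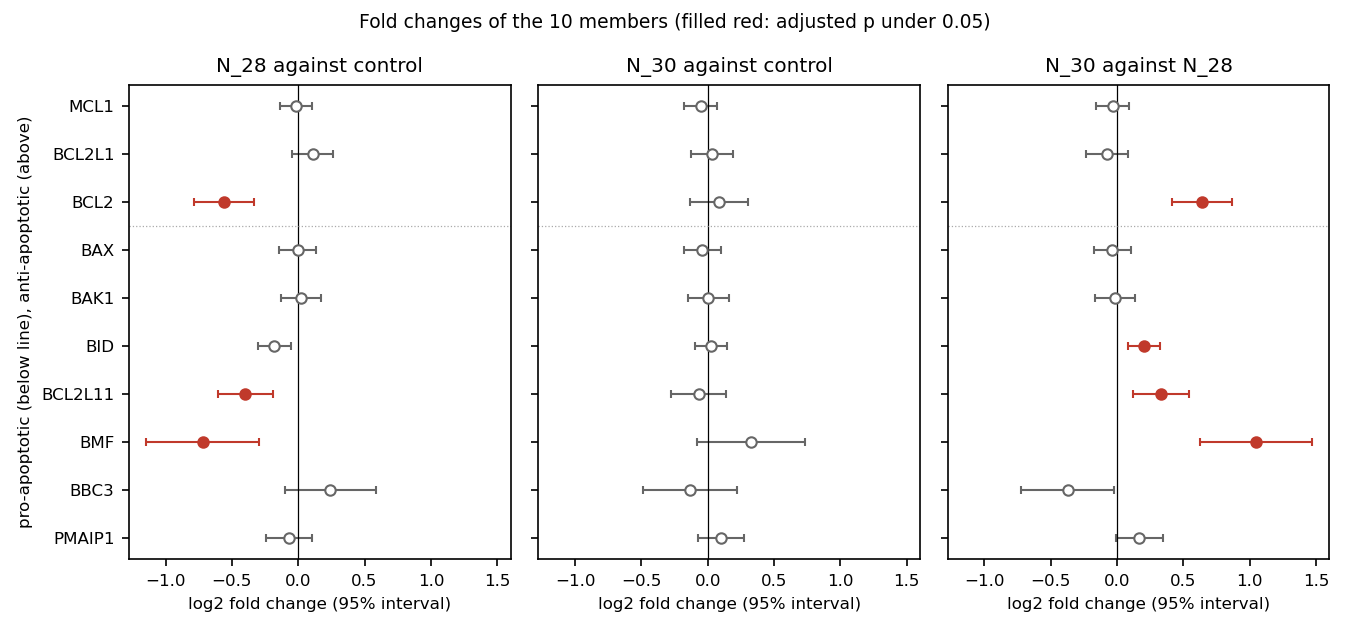
Log2 fold change (x axis) of each member with its 95% interval from the quasi-likelihood fit, for N_28 against control, N_30 against control and N_30 against N_28, with anti-apoptotic members above the dotted line, pro-apoptotic members below it, and filled symbols for an adjusted p under 0.05. BCL2, BCL2L11 and BMF lie to the left of 0 in N_28 and, with BID, to the right of 0 in N_30 against N_28, while all intervals of N_30 against control cross 0.

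Among the anti-apoptotic members, BCL2 (ENSG00000171791, chr18:63123346-63320128 on the minus strand, GRCh38) blocks BAX and holds BIM. It was at 15.2, 17.0 and 16.6 CPM in control libraries 1, 2 and 3, at 10.6, 12.4 and 10.2 CPM in N_28 and at 19.1, 16.2 and 16.4 CPM in N_30. All 3 N_28 libraries lay below every other library, and control and N_30 overlapped. The log2 fold change was -0.56 in N_28 (SE 0.10, adjusted p = 0.00344) and 0.08 in N_30 (95% interval -0.14 to 0.30, adjusted p = 0.828), and N_30 was 0.64 above N_28 (SE 0.10, adjusted p = 0.000809). These values rest on 220 to 370 counts per library. BCL2 was called in N_28 and in N_30 against N_28 under all 19 alternatives tried for each.

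BCL2L1 (ENSG00000171552, chr20:31664452-31723989, minus strand) encodes BCL-XL, which holds BAX and several BH3-only proteins. It was at 157, 156 and 146 CPM in control, 171, 176 and 148 CPM in N_28 and 160, 164 and 145 CPM in N_30. The groups overlapped, and in each group library 3 was the lowest. The change was 0.11 in N_28 (95% interval -0.05 to 0.26) and 0.03 in N_30 (-0.12 to 0.19), neither of which passed. Its exons share 1424 bases with the antisense gene ABALON, which had 18 to 40 counts.

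MCL1 (ENSG00000143384, chr1:150574551-150579738, minus strand), which binds BIM, NOXA and BAK1, was at 371, 400 and 415 CPM in control, 400, 394 and 376 CPM in N_28 and 380, 391 and 372 CPM in N_30. The groups overlapped. Its changes were small and tightly bounded, at -0.02 in N_28 (95% interval -0.14 to 0.10) and -0.05 in N_30 (-0.18 to 0.07).

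Neither of the 2 pore-forming effectors passed a comparison. BAX (ENSG00000087088, chr19:48954815-48961798, plus strand) was at 186, 169 and 183 CPM in control, 189, 168 and 179 CPM in N_28 and 163, 181 and 180 CPM in N_30. Its groups overlapped, and the 95% intervals of its changes were -0.14 to 0.13 in N_28 and -0.18 to 0.10 in N_30. BAK1 (ENSG00000030110, chr6:33572547-33580293, minus strand) was at 35.0, 38.8 and 38.7 CPM in control, 39.0, 39.1 and 36.2 CPM in N_28 and 35.6, 37.5 and 39.8 CPM in N_30. It too overlapped between groups, with intervals of -0.13 to 0.17 in N_28 and -0.15 to 0.16 in N_30. The BAK1 pseudogenes BAK1P1 and BAK1P2 had at most 1 and 3 counts in any library.

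BCL2L11 and BMF are the BH3-only transcripts that fell in N_28, and both proteins are tethered to the cytoskeleton in healthy cells. The letters upstream of a start of each are shown because these transcripts were low in the same libraries. The sequences run 5′ to 3′ on the gene's strand, end next to the start in BCL2L11 and 13 bases before it in BMF, where an annotated exon begins, come from RefSeq on GRCh38.p14, lie outside annotated exons, and carry in capitals the matches to GTAAACA (a letter string bound by FOXO factors) and GGGCGG (the GC box bound by SP1 and related factors), with the BCL2L11 stretch at chr2:111120664-111120913 on the plus strand and the BMF stretch at chr15:40108893-40109129 on the minus strand.
BCL2L11: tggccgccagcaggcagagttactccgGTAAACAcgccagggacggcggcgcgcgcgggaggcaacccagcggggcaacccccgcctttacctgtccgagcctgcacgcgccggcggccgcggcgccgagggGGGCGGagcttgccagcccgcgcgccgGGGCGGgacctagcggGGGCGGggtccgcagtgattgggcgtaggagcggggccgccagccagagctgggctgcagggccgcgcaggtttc
BMF: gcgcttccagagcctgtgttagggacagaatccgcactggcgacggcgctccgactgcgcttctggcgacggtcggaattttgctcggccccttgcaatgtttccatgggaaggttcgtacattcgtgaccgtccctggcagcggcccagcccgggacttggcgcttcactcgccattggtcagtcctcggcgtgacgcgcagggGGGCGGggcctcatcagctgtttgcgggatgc
GTAAACA lies 223 to 217 bases before this RefSeq start of BCL2L11, and the GC box nearest to GTAAACA lies 118 to 113 bases before that start. The BCL2L11 stretch lies inside the GENCODE gene span (chr2:111119378-111168447), downstream of the first base of the gene. In BMF the GC box is 45 to 40 bases before the start, counting the 13 bases not shown. No 2 of these matches overlap. In 250 upstream bases on both strands, GTAAACA was found in 2.98% of 35116 RefSeq windows and, among the members, in BCL2L11. GGGCGG was found in 42.6% of the windows and in BCL2L11, BMF, BAK1, BAX, BID and PMAIP1. The E-box CACGTG (6.34% of windows) was found in BAX, BBC3 and BID, and the AP-1 string TGACTCA (4.2%) in BBC3. Windows were at hand for 9 of the 10 members, the strings were chosen after the values had been seen, and a match describes letters, not binding.

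BCL2L11 (ENSG00000153094, chr2:111119378-111168447, plus strand) encodes BIM, which neutralises all anti-apoptotic members and can activate BAX. It was at 13.5, 11.8 and 13.4 CPM in control, 9.54, 10.6 and 9.34 CPM in N_28 and 12.8, 11.8 and 12.3 CPM in N_30. Every N_28 library lay below every control and N_30 library, and control and N_30 overlapped. The change was -0.40 in N_28 (SE 0.10, adjusted p = 0.0173), -0.07 in N_30 (95% interval -0.27 to 0.14, adjusted p = 0.859) and 0.33 in N_30 against N_28 (SE 0.10, adjusted p = 0.0311), on 192 to 299 counts per library. The N_28 call was lost in 6 of 19 alternatives (log2 fold changes of -0.46 to -0.34 over all 19), those without control library 1 (adjusted p = 0.0558), control library 3 (0.0649), N_28 library 1 (0.0706) or N_28 library 3 (0.0695), and those without all libraries numbered 1 (0.179) or 3 (0.151). The call in N_30 against N_28 was lost in 9 of 19 (0.29 to 0.38), including those without N_28 library 1 or 3 or any 1 N_30 library. Exons of BCL2L11 share 727 bases with MIR4435-2HG on the opposite strand, and whether the counting used strand is not known here, so reads of the shared stretch cannot be told apart. MIR4435-2HG itself had 423 to 627 counts per library and a log2 fold change of -0.02 in N_28 (95% interval -0.17 to 0.13).

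BMF (ENSG00000104081, chr15:40087890-40108892, minus strand) had the largest fold change of the 10 in N_28, in N_30 and between them, and the largest spread relative to its mean in control and N_30. It was at 42.5, 28.2 and 23.6 CPM in control libraries 1, 2 and 3, at 18.5, 18.7 and 19.9 CPM in N_28 and at 50.9, 36.2 and 31.5 CPM in N_30. The N_28 libraries were the lowest and close together, while control and N_30 overlapped and ranged widely. Library 1 was the highest and library 3 the lowest in both control and N_30, but not in N_28. The change was -0.72 in N_28 (95% interval -1.15 to -0.30, adjusted p = 0.0328), 0.33 in N_30 (-0.08 to 0.74, adjusted p = 0.564) and 1.05 in N_30 against N_28 (0.62 to 1.47, adjusted p = 0.00224), the last being a 2.07-fold difference.

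The fall of BMF in N_28 depended on single libraries. Without control library 1 it was -0.44 (adjusted p = 0.146), and the call was also lost without N_28 library 1, 2 or 3 (adjusted p of 0.101, 0.106 and 0.0679) and in DESeq2 (-0.72, adjusted p = 0.0676). Without the libraries numbered 1 of every group it was -0.42 (adjusted p = 0.0897). The difference between N_30 and N_28 was called in all 19 alternatives, at 0.81 to 1.22. Set against the control library of the same number, BMF in N_28 was -1.19, -0.59 and -0.25 and in N_30 0.26, 0.36 and 0.41 on the log2 scale. All N_28 libraries lay below all control libraries, so the signs in N_28 do not depend on the numbers. In N_30, BMF was above the same-numbered control in 3 of 3 libraries, but the test of N_30 against control, which does not use the numbers, did not pass. The share of all genes with such an order in N_30 was not counted. The call in N_30 was made in 1 alternative, the fit without a filter on low counts (0.32, adjusted p = 0.0248). The antisense gene BMF-AS1, which shares 461 exonic bases with BMF, had 0 counts in every library.

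**Figure D3:**
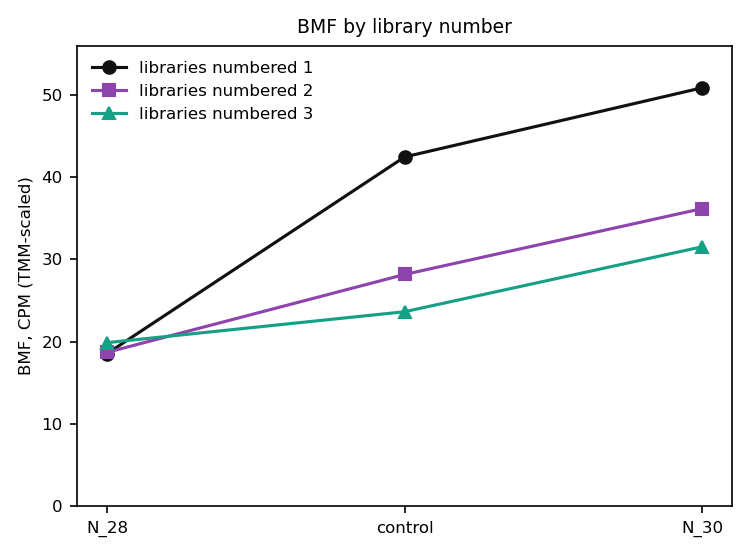
BMF in CPM on TMM-scaled library sizes (y axis, from 0) in N_28, control and N_30, with lines joining libraries that carry the same number, which does not by itself show that they were handled together. The N_28 libraries lie at 18.5 to 19.9 CPM, whereas control and N_30 each spread with library 1 highest, and each line rises from N_28 through control to N_30.

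BID (ENSG00000015475, chr22:17734138-17774770, minus strand) links death receptors to mitochondria once caspase 8 has cut it. It was at 49.0, 47.6 and 47.7 CPM in control, 42.1, 42.8 and 42.5 CPM in N_28 and 48.5, 50.8 and 47.3 CPM in N_30. The N_28 libraries lay below all others with little spread, and control and N_30 overlapped. The difference of N_30 from N_28 was 0.20 (SE 0.06, adjusted p = 0.0235), and it lost its call in 8 of 19 alternatives at 0.17 to 0.23, among them each omission of an N_28 library and of N_30 library 1 or 2. Against control, N_28 was at -0.18 and did not pass (SE 0.06, adjusted p = 0.0594); it passed in 3 of 19 alternatives, with replicate numbers as a block, without TMM factors and in genes of at least 5 mean CPM. The other 385 tested genes of chromosome 22 had a median of -0.11 in N_28 against control and of 0.17 in N_30 against N_28, beside which the BID values stand. The medians of the chromosomes of BCL2, BCL2L11 and BMF were -0.04, 0.01 and -0.06 in N_28.

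The p53 targets BBC3 and PMAIP1 passed no comparison. BBC3 (ENSG00000105327, chr19:47220822-47232766, minus strand) was at 12.5, 9.10 and 8.07 CPM in control, 13.2, 11.1 and 10.7 CPM in N_28 and 7.34, 9.76 and 9.75 CPM in N_30. Every N_30 library lay below every N_28 library, and control overlapped both. The difference of N_30 from N_28 was -0.37 (95% interval -0.72 to -0.02, adjusted p = 0.132), and those of N_28 and N_30 from control were 0.24 (-0.10 to 0.59) and -0.13 (-0.49 to 0.22). PMAIP1 (ENSG00000141682, chr18:59899948-59904306, plus strand) was at 36.2, 43.3 and 42.5 CPM in control, 42.2, 38.6 and 35.5 CPM in N_28 and 43.9, 43.2 and 43.5 CPM in N_30. All N_30 libraries lay above all N_28 libraries, with a difference of 0.17 (95% interval -0.01 to 0.34, adjusted p = 0.179), and control overlapped both. Libraries did not overlap between N_30 and N_28 for BCL2, BCL2L11, BMF, BID, BBC3 and PMAIP1, as for 36.4% of all genes tested.

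The balance of the classes was described by the mean log2 CPM of the 7 pro-apoptotic members minus that of the 3 anti-apoptotic ones in each library. It was -1.56 ± 0.133 in control, -1.55 ± 0.0859 in N_28 and -1.54 ± 0.0592 in N_30 (SD, n = 3), and the ranges of -1.63 to -1.40, -1.65 to -1.49 and -1.60 to -1.49 overlapped. On this scale both means were lower in N_28: the pro-apoptotic mean was 4.93 ± 0.0472 against 5.08 ± 0.0898 in control and 5.12 ± 0.0110 in N_30, and the anti-apoptotic mean was 6.48 ± 0.101 against 6.64 ± 0.0455 and 6.66 ± 0.0656. Of the 3 anti-apoptotic members BCL2 alone was called, and it is the least abundant. On the scale of summed CPM per kilobase the anti-apoptotic level was 138.0 ± 3.96 in control, 140.0 ± 7.42 in N_28 and 135.9 ± 5.04 in N_30, and the pro-apoptotic level 126.1 ± 3.01, 121.8 ± 5.30 and 126.8 ± 3.20. As a ratio of summed CPM per kilobase, pro- to anti-apoptotic transcripts stood at 0.915 ± 0.0441, 0.872 ± 0.0477 and 0.934 ± 0.0443, again overlapping. No p-value is given for these scores.

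Single pairs within the balance are given as description. BAX minus BCL2, the classical ratio of an effector to its guardian, was 3.46 ± 0.148 on the log2 scale in control, 4.01 ± 0.218 in N_28 and 3.33 ± 0.219 in N_30, and the lowest N_28 library at 3.76 was above the highest control library at 3.60. BCL2L11 minus MCL1, a BH3-only protein and a guardian that binds it, was -4.93 ± 0.150, -5.30 ± 0.0835 and -4.94 ± 0.0836, and the highest N_28 library at -5.21 was below the lowest control library at -5.07. N_28 thus lay on the pro-apoptotic side of control in the first pair and on the anti-apoptotic side in the second. BAX and MCL1 hardly changed in N_28, at log2 fold changes of -0.005 and -0.02. These 2 pairs therefore restate the falls of BCL2 and BCL2L11 and add no separate result. PMAIP1 minus MCL1 was -3.28 ± 0.0751, -3.33 ± 0.0817 and -3.13 ± 0.0418, with all N_30 libraries above the others. BBC3 minus BCL2L1 was -3.96 ± 0.282, -3.81 ± 0.154 and -4.12 ± 0.279, with overlap.

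**Figure D4:**
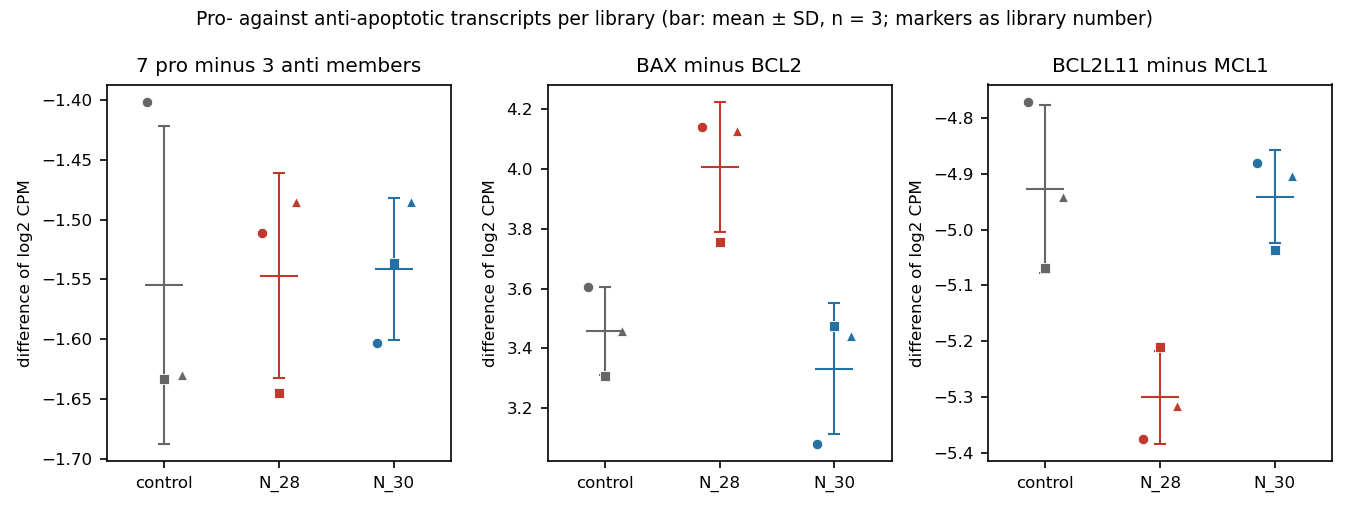
Differences of log2 CPM per library (y axes, which do not start at 0) between the means of 7 pro- and 3 anti-apoptotic members, between BAX and BCL2 and between BCL2L11 and MCL1, with markers by library number and bars for the mean ± SD of 3 libraries. The first overlaps among the groups at means of -1.56, -1.55 and -1.54, while N_28 stands above the other groups for BAX minus BCL2 and below them for BCL2L11 minus MCL1.

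The genes most like each of the 3 members with the lowest p for any difference among groups were looked up among 10680 genes of at least 5 mean CPM, by Pearson's correlation of log2 CPM over the 9 libraries, which share the group differences. BCL2 was most like FSTL1 (r = 0.985), RPS6KA3 (0.982) and WAC-AS1 (0.981). BMF was most like ADAMTS10 (0.979), PSAP (0.976) and SHROOM1 (0.974), and BCL2L11 like LINC01963 (0.969), NREP (0.968) and RPH3AL (0.967). In N_28, FSTL1 was at -1.15, RPS6KA3 at -0.29 and WAC-AS1 at -0.51 on the log2 scale. ADAMTS10 was at -0.86, PSAP at -0.21 and SHROOM1 at -0.25, and LINC01963 at -0.92, NREP at -0.91 and RPH3AL at -0.76. Of the markers of other cell types, some were called in the same comparisons. Of 5 tested embryonic kidney markers, LHX1 was lower in N_28, at 53.1 CPM against 99.2 CPM in control and 93.9 CPM in N_30 (-0.90, adjusted p = 0.000105), and the others did not pass, with PAX2 at -0.11, CDH6 at -0.47, PAX8 at 0.45 and CDH16 at 1.01. Of 3 tested fibroblast markers, COL1A1 was higher in N_30 than in N_28, at 127 against 50.9 CPM and 71.7 CPM in control (1.31, adjusted p = 0.00163), and COL1A2 and COL3A1 did not pass, at 0.13 and 0.39. Of 3 tested hepatocyte markers, FGB was higher in N_30 than in N_28 (0.48, adjusted p = 0.0408), and SERPINA1, at means of 0.729 CPM in control, 0.101 CPM in N_28 and 1.41 CPM in N_30, was called lower in N_28 and higher in N_30 than in N_28. The endothelial marker PECAM1 was higher in N_28 (0.81, adjusted p = 0.0346), at 2.33 CPM against 1.33 CPM in control. The part of these markers in the values of BCL2, BCL2L11 and BMF was not tested.

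The wider pathway was read from 94 further genes in 10 lists, of which 88 were tested. In N_28 against control 6 of them rose and 1 fell, 7.95% in all beside 10.2% of all genes. In N_30 against control, and for both knock-downs together, 0 of 88 were called (0.866% and 1.78% of all genes); 8 and 9 of them had an unadjusted p under 0.05, and DESeq2 called 1 and 0. In N_30 against N_28, 3 were higher and 14 lower, and 19.3% were thus called beside 18.3% of all genes. The median log2 fold change of the 88 was 0.04 in N_28 and -0.06 in N_30 against N_28, beside 0.00 for all genes. The counts varied with the libraries used: without the libraries numbered 1 they were 1 in N_28 and 7 in N_30 against N_28, and over all alternatives they ran from 1 to 15 and from 7 to 27. In N_30 and for both knock-downs the alternatives gave 0 to 5 and 0 to 6, with FOXO1 called in N_30 in 5 of 18 and BIRC2 for both in 3 of 18.

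Of the 16 other BCL2-like genes, 12 were tested and 0 were called in N_28 against control, by edgeR or DESeq2. These methods called 10.2% and 10.6% of all genes, and with 12 genes a count of 0 is close to those shares. Of the 12, 4 had an unadjusted p under 0.05. BCL2A1, BCL2L10, BCL2L14 and BCL2L15 had too few counts to be tested. In N_30 against N_28, BCL2L2 (BCL-W, a further guardian) was at -0.34 (adjusted p = 0.00771) and the mitophagy receptor BNIP3L at -0.30 (adjusted p = 0.00210), while BCL2L13, also a mitophagy receptor, was higher, at 0.31 (adjusted p = 0.00323). BCL2L2 was at 25.3 ± 1.71 CPM in N_30, 32.0 ± 1.44 CPM in N_28 and 27.7 ± 1.50 CPM in control, the opposite order to BCL2. The effector BOK, the BH3-only gene BAD, BNIP3 and BCL2L12 were at -0.05, 0.03, 0.12 and 0.24 in N_28 and did not pass.

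Downstream of the mitochondria, 0 of 12 genes of the apoptosome, the caspases and the factors released from the intermembrane space were called in N_28, by edgeR or DESeq2. The share over all genes was 10.2% and 10.6%, to which 0 of 12 is close. Of these genes, 0 had an unadjusted p under 0.05. In N_30 against N_28, APAF1, the scaffold of the apoptosome, was at -0.39 (adjusted p = 0.0166). Cytochrome c (CYCS) and AIFM1 were at 0.14 and 0.09 in N_28 and did not pass. Of 6 inhibitor of apoptosis genes, 1 was called in N_28, 16.7% beside 10.2% of all genes. This gene, BIRC2, a ubiquitin ligase of TNF receptor complexes, rose. It was at 51.9, 73.2 and 59.7 CPM in control, 104, 93.1 and 93.8 CPM in N_28 and 56.5, 61.5 and 55.6 CPM in N_30, with all N_28 libraries above the rest. Its change was 0.66 in N_28 (SE 0.10, adjusted p = 0.000782) and -0.75 in N_30 against N_28 (SE 0.10, adjusted p = 0.000171). XIAP, which blocks caspases directly, was lower in N_30 than in N_28 (-0.26, adjusted p = 0.0262) and BIRC7 higher (1.04, adjusted p = 0.0398), the latter on 10 to 35 counts per library. In N_30 against N_28, 3 of the 6 were called, 50% beside 18.3% of all genes. BIRC5 and BIRC6 were at 0.09 and 0.04 in N_28 and did not pass. BIRC3 was at 0.71 in N_28 (adjusted p = 0.0504), above the value of BIRC2, and at 0.64 in N_30 (adjusted p = 0.234). It passed in neither.

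In the death receptor list 3 of 11 genes tested rose in N_28 and 0 fell, 27.3% beside 4.49% of all genes that rose and 10.2% called in either direction. TNFRSF10B, a receptor for TRAIL, was at 216, 250 and 226 CPM in control, 335, 309 and 290 CPM in N_28 and 200, 233 and 210 CPM in N_30. All N_28 libraries were above the others, with a change of 0.43 (SE 0.08, adjusted p = 0.00211) and of -0.54 in N_30 against N_28 (SE 0.08, adjusted p = 0.000238). RIPK1, the kinase at these receptors, rose by 0.30 (adjusted p = 0.0317), and TNFRSF1A, the main TNF receptor, by 0.34 (adjusted p = 0.0364), the latter named after its value was seen. RIPK1 at -0.32, CASP10 at -0.66 and CFLAR, an inhibitor of caspase 8, at -0.23 were lower in N_30 than in N_28 (adjusted p of 0.0154, 0.0159 and 0.0223). TNFRSF10A and CASP8 were at 0.27 and 0.16 in N_28 and did not pass. BIRC2 kept its N_28 call in all 19 alternatives, TNFRSF10B lost it in 1 and RIPK1 in 8. The call of TNFRSF1A was not followed through the alternatives.

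Upstream, JUN, a subunit of AP-1, rose by 0.24 in N_28 (adjusted p = 0.0133). It was the 1 gene called of 14 tested regulators, 7.14% beside 10.2% of all genes. JUN was at -0.31 in N_30 against N_28 (adjusted p = 0.00173), where 2 of the 14 were called, 14.3% beside 18.3%. FOXO1, a factor known to drive BCL2L11, was at -1.34 in N_30 against N_28 (adjusted p = 0.00147), at 2.08 ± 0.585 CPM in N_30, 5.37 ± 0.499 CPM in N_28 and 4.04 ± 1.20 CPM in control. Against control FOXO1 did not pass in N_28 (0.40, adjusted p = 0.285) or in N_30 (-0.94, adjusted p = 0.107). FOXO3 was at 0.02 in N_28 and did not pass. A link of either factor to the level of BCL2L11 was not tested. ATF4 and MYC were at -0.04 and -0.03 in N_28. DDIT3 was at 0.51 in N_28, 0.43 in N_30 and 0.47 for both knock-downs against control. It did not pass in any of these (adjusted p of 0.0517, 0.284 and 0.117). Of 15 p53 targets, 1 was called in N_28 and 1 in N_30 against N_28, 6.67% in each beside 10.2% and 18.3% of all genes. In both it was TP53I3, lower in N_28 at -0.27 (adjusted p = 0.0399) and 0.26 higher in N_30 than in N_28 (adjusted p = 0.0320). GDF15 was at -0.18 and AEN at 0.07 in N_28. FBXW7, which marks MCL1 for destruction, rose by 0.27 in N_28 (adjusted p = 0.0356) and was at -0.24 in N_30 against N_28 (adjusted p = 0.0367), and TPT1, a protein that binds MCL1, was at -0.27 in N_30 against N_28 (adjusted p = 0.0156). HUWE1 and YWHAZ were at 0.10 and -0.09 in N_28. Among the channels and import pores of the outer membrane, TOMM40 was at -0.25 in N_30 against N_28 (adjusted p = 0.00831), while VDAC1 and TOMM20 were at 0.02 and -0.01 in N_28. The N_28 calls of FBXW7, TP53I3 and JUN were lost in 10, 8 and 2 of 19 alternatives. The calls in N_30 against N_28 were lost in 9 of 18 alternatives for BIRC7, in 9 of 19 for FBXW7, 6 for TP53I3, 5 for XIAP, 4 each for APAF1 and CFLAR, 3 each for RIPK1 and TPT1, 3 of 18 for CASP10, and 1 of 19 each for BCL2L2 and TOMM40.

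**Figure D5:**
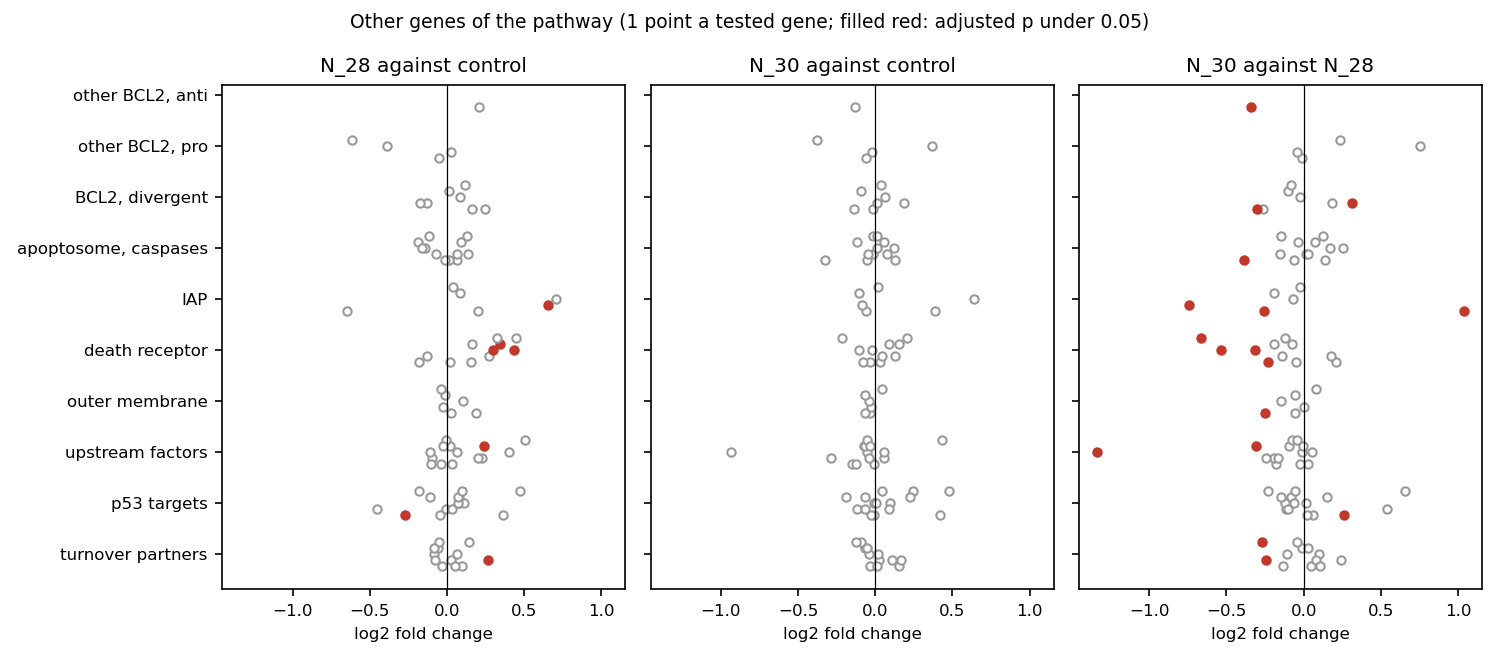
Log2 fold change (x axis) of 88 tested genes of 10 lists around the BCL2 family (y axis, 1 point a gene, spread for legibility) in 3 comparisons, with filled symbols for an adjusted p under 0.05. Filled points lie mostly above 0 in N_28 (6 of 7), are absent in N_30 against control, and lie mostly below 0 in N_30 against N_28 (14 of 17).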

How the data were processed

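The authors deposited unnormalized counts as whole numbers, with human Ensembl identifiers. Per the submitters' processing notes the build is mm8, a mouse assembly, although the identifiers are human; aligner, counter, annotation and use of strand: not given in the sources used here. Symbols came from a gene name table (56434 rows) and GENCODE 29 (434 rows), and 3580 rows stayed unnamed; coordinates are GENCODE 29 on GRCh38. Genes with enough counts in a group (edgeR's filterByExpr, minimum count 10) got TMM scaling (trimmed mean of M values). The quasi-likelihood test of edgeR 4.0.16 under R 4.3.3 was run on the 9 libraries together, with group as the sole term, Benjamini-Hochberg adjustment over 15019 genes and a threshold of 0.05. The SE was derived from the fold change and the F statistic. Levels are CPM on TMM-scaled sizes, and log2 CPM has a prior count of 2. Promoter strings were counted on RefSeq windows of GRCh38.p14.

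Members, lists and tests were chosen with earlier results of these data known. The lists leave out 1 gene that is not reported here. Named genes were OPA1, the 10 members, up to 4 called genes of each list by lowest adjusted p and up to 2 of the highest level that were not called, and the 3 genes most like each of 3 members. TNFRSF1A, BIRC3, DDIT3 and the marker genes given by value fall outside this rule and were named after their values were seen. Alternatives were other scalings and filters, DESeq2 1.42.0, fits of only the groups compared, a replicate block, each library left out in turn, and, added after seeing the data, the libraries numbered 1 or 3 left out of every group. Control and N_30 libraries of the same number deviated together from their group means (r of 0.122, 0.169 and 0.306, from the data and not from the labels), so these numbers are read as pairing them. Pairs with N_28 ran from -0.0588 to 0.235 and are not read so. They were highest for number 3, at 0.142 with control and 0.235 with N_30. The libraries numbered 3 also had the lowest mitochondrial share of each group, at 3.34%, 3.3% and 3.33% in control, N_28 and N_30. A trait shared by the libraries numbered 3 in all groups therefore remains possible. The main fit does not use the pairing of control and N_30, and the replicate block was fitted to all groups together. No fit paired control and N_30 alone. Libraries of a group differed by a chi-square per gene of 3.57 to 12.4, so none was treated as a copy. The fits were tested on simulated data with known changes.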

Additional observations from a re-analysis of the deposited data

Results flagged for a closer look

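The following transcripts differed between the 2 knock-down sets by the test of N_30 against N_28 itself, which is the test of a difference between their changes against the shared control. OPA1 was 0.21 higher in N_30 on the log2 scale. Of the family, BMF was 1.05, BCL2 0.64, BCL2L11 0.33 and BID 0.20 higher in N_30. BIRC7 was 1.04, BCL2L13 0.31 and TP53I3 0.26 higher. FOXO1 was at -1.34, BIRC2 at -0.75, CASP10 at -0.66, TNFRSF10B at -0.54 and APAF1 at -0.39. BCL2L2 was at -0.34, RIPK1 at -0.32, JUN at -0.31, BNIP3L at -0.30 and TPT1 at -0.27. XIAP was at -0.26, TOMM40 at -0.25, FBXW7 at -0.24 and CFLAR at -0.23. Some of these calls depended on the setting: BIRC7 lost its call in 9 of 18 alternatives, FBXW7 and BCL2L11 in 9, BID in 8, TP53I3 in 6 and XIAP in 5 of 19. The sets also differ in their OPA1 level and in whatever N_28 and N_30 stand for, and these cannot be told apart from the difference between the sets.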

How the results depend on the processing

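The count of members called in N_28 against control was 3; it was 2 in DESeq2, 4 with library totals alone and with genes of at least 5 mean CPM, 1 to 3 when a library was left out, and 1 without the libraries numbered 1 (added after seeing the data). Leaving out control library 1, N_28 library 1 or N_28 library 3 kept BCL2 alone. In N_30 against control the count was 0 in all alternatives except the fit without a filter, which called 1 (BMF), and it was 0 to 0 with a library left out. In N_30 against N_28 it was 4, then 3 in DESeq2 and without a filter (which called BBC3 and not BID or BCL2L11), 2 to 4 with a library left out, and 2 without the libraries numbered 1 or numbered 3; BCL2 and BMF were called in all 19. For both knock-downs it was 0 in all 18 alternatives. The balance of pro- and anti-apoptotic members moved by less than 1 SD in each alternative. No called member value reversed, and 41 of 750 member values, in 19 results that were not called, crossed 0, at -0.10 to 0.19.

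With the replicate block, 4 members were called in N_28 against control (BID added, adjusted p = 0.0487), 0 in N_30, 4 in N_30 against N_28 and 0 for both knock-downs, and it changed no other member's call. Over all genes the block raised the calls from 1538 to 2301 in N_28, 130 to 424 in N_30, 2755 to 3673 between the sets and 268 to 616 for both. Each control and N_30 library correlated best with its own number (6 of 6), whereas 3 of 6 did between control and N_28 and 2 of 6 between N_28 and N_30. The block was fitted with N_28 included, so its count of 0 in N_30 does not test control and N_30 as pairs alone. The fit of only the groups compared has no form for both knock-downs. In N_28 against control the SE was largest for BMF, at 0.197 on 340 to 868 counts per library. BBC3 followed at 0.160 on 122 to 275 counts, while BCL2L11 was at 0.097 on 192 to 299 counts. Precision therefore did not follow the number of reads alone.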
